A study of Equus caballus with 4 samples.

Results

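Transcript levels of the pentose phosphate pathway and of enzymes that supply or use reduced NADP (NADPH) were examined in differentiating equine satellite cells (ESC). The set held 9 genes. PGD belongs to the oxidative branch of the pathway, and TALDO1, TKT, RPIA and RPE belong to its non-oxidative branch. IDH1, IDH2 and ME1 are NADP-linked dehydrogenases outside the pathway, and GSR spends NADPH to reduce glutathione. Members were all gene probes whose annotated gene name was exactly one of these symbols. This gave 24 of the 43603 gene probes on the array, and 9 of the 13692 gene names that could be tested. All 24 probes were well above background on all 4 arrays in both channels, so none was lost to the filter on dim probes.

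ESC are the stem cells of skeletal muscle. They came here from m. semitendinosus of young stallions, and the study's methods state that a single primary cell line was carried forward. Cells on day 3 of differentiation had been incubated for 24 h with gamma-oryzanol (GO, ferulic acid esters of plant sterols from rice bran) at 0.125 µM, with hydrogen peroxide (H2O2) at 3 mM during the last 1 h. Control cells of the same line and day were without GO and, per the methods, received its DMSO vehicle. The labels do not say if the control cells met H2O2, whereas the study presents them as exposed, so the comparison is written here as GO and H2O2 over control. Treated RNA was labelled with Cy5 (red) and control RNA with Cy3 (green) on each of 4 two-colour Agilent horse arrays, which shared 1 slide. As no array had swapped dyes, treatment and dye cannot be told apart in any value below. The labels call the arrays biological replicates. With 1 cell line, the p-values measure the spread between cultures of that line and not between horses.

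The pentose phosphate pathway branches from glycolysis at glucose 6-phosphate. Its oxidative branch yields NADPH and ribulose 5-phosphate, and its non-oxidative branch interconverts sugar phosphates, so that carbon can go to ribose 5-phosphate for nucleotides or return to glycolysis. NADPH keeps glutathione and thioredoxin reduced, and cells draw on both to remove peroxides.

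The log2 ratio used below is red over green after background correction and loess normalisation. A value of 0 is the trend of probes of like brightness on the same array, and a value below 0 is a lower signal with GO and H2O2 than that trend. Each gene is given by its tested probe with the highest mean signal (the brightest probe), and its other probes follow. In RNA from whole cultures, fewer cells of a type and less RNA per cell cannot be told apart.

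The probes that carry the results are 60 bases long. Printed here are those whose deposited position in EquCab1, the build named in the file headers, spans more genome than the probe has bases, so that the bases of each do not form a single unbroken stretch there. The TKT probe was placed at chr16:34608978-34610268 on the plus strand, over 1291 bases. The RPE probe was placed at chr6:753046-753662 on the plus strand, over 617 bases. The probes of RPIA (chr15:13725849-13730431, minus strand, 4583 bases) and IDH1 (chrUn:104499953-104500917, minus strand, 965 bases) were of the same kind.
TKT: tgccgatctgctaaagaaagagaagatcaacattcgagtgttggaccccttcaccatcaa
RPE: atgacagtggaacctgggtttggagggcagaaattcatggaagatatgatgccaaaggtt
RPIA: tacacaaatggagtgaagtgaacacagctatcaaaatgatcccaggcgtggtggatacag
IDH1: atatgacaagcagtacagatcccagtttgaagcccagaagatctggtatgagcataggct

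PGD is shown because its probes lay at separate sites of the gene and could differ. The brightest PGD probe was at chr2:39033778-39033837 and the other 5 overlapped within chr2:39039312-39039379, all on the minus strand. Capitals mark the 52 bases that these 5 probes had in common, of which 1 probe is printed.
PGD, brightest probe: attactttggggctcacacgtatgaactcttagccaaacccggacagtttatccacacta
PGD, second site: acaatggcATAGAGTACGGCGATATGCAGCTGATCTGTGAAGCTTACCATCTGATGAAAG

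Transcripts of 3 of the 9 enzymes were lower with GO and H2O2, and all 3 belong to the non-oxidative branch: TALDO1, RPE and TKT (limma adjusted p under 0.05). Their mean log2 ratios lay between −0.25 and −0.20, which is 1.19-fold lower for TALDO1 and 1.15-fold lower for RPE and TKT. RPIA, of the same branch, did not pass. ME1 and GSR, outside it, had means of −0.22 and −0.21, at least as low as those of RPE and TKT, and did not pass either. None of the 9 rose, and none reached a fold change of 1.3. By the same test 17.1% of all gene names passed, 7.16% in the lower direction and 9.93% in the higher. Of the 24 probes, 7 passed, all lower, whereas of all probes 7.59% were lower and 9.49% higher. The 7 are not separate evidence, as 5 of them were overlapping probes of TALDO1, and they stand for 3 genes. A fold of 1.3 together with the threshold was met by 1.42% of all probes. The median log2 ratio was −0.20 over the 9 members and 0.0088 over all gene names. Of the members, 8 had a mean below 0 (47.5% of all gene names did) and 6 were below 0 on all 4 arrays (20.3% of all). At an unadjusted p under 0.05 the count was 7 of 9, beside 36.7% of all gene names.

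**Figure D1:**
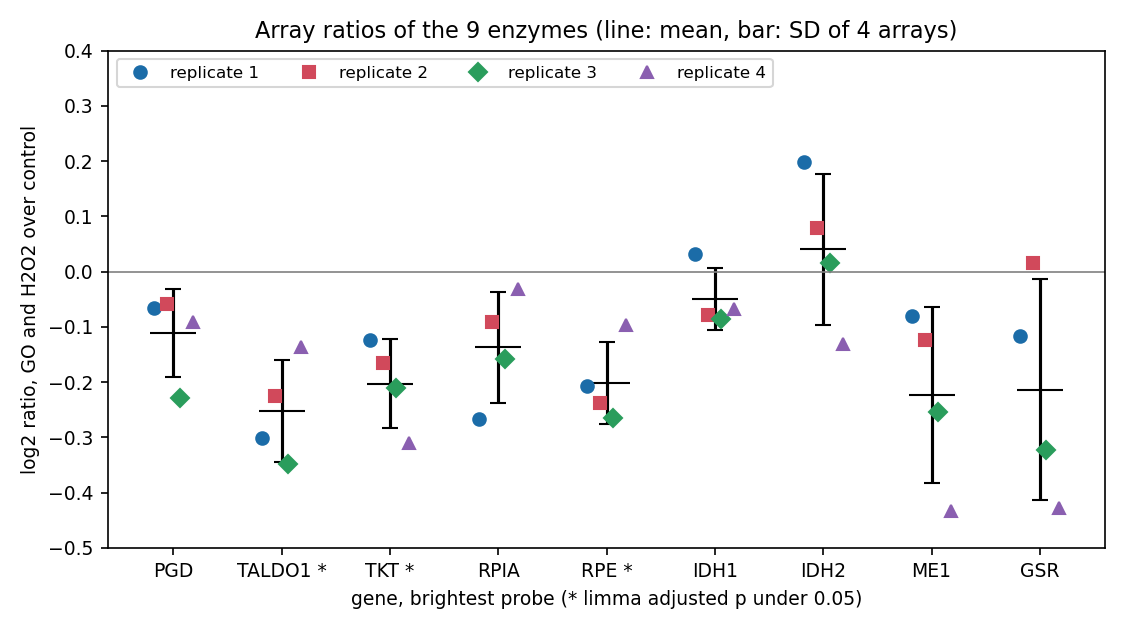
Log2 ratio of GO and H2O2 over control (y axis) of the brightest probe of each enzyme (x axis) on each of the 4 arrays, with the mean (line) and SD (bar). TALDO1, TKT and RPE, marked by an asterisk, had all 4 arrays below 0, whereas IDH2 had arrays on both sides of 0 with a mean of 0.04.

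The non-oxidative branch was measured at 4 enzymes. TALDO1 encodes transaldolase, which transfers a dihydroxyacetone unit between sugar phosphates. Its scanned mean intensities in red were 9231, 8773, 6005 and 8168 on replicates 1 to 4, and those in green were 9160, 7625, 6174 and 7602. The log2 ratios after normalisation were −0.30, −0.23, −0.35 and −0.14. All 4 arrays were below 0, with replicate 4 nearest to it. The mean was −0.25 ± 0.09 (SD, n = 4; 95% interval −0.37 to −0.14; limma adjusted p = 0.0238).

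TALDO1 had 5 probes, which overlapped within chrUn:305679820-305679888 and shared 51 bases, so they were near-repeats of a single measurement. All 5 passed the threshold, with means from −0.23 to −0.27 and limma adjusted p from 0.0189 to 0.0267. Their 20 values lay between −0.35 and −0.11. Within an array the probes spread by an SD of 0.0253, averaged over the arrays. This was less than the SD of 0.0789 between the array means.

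TKT encodes transketolase, which moves carbon pairs between sugar phosphates with thiamine diphosphate as cofactor. Its red intensities were 5796, 5052, 3771 and 3921, and its green intensities were 5236, 4336, 3559 and 4240. The log2 ratios were −0.12, −0.17, −0.21 and −0.31. As with TALDO1 all 4 arrays were below 0, but here replicate 4 was the lowest. The mean was −0.20 ± 0.08 (SD, n = 4; 95% interval −0.31 to −0.09; limma adjusted p = 0.0329).

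RPE encodes ribulose-phosphate 3-epimerase, which turns ribulose 5-phosphate into xylulose 5-phosphate, a substrate of transketolase. Its log2 ratios were −0.21, −0.24, −0.26 and −0.10, again all below 0 and with replicate 4 nearest to it. The intensities behind them were modest, from 986 to 1151 in red and from 965 to 1151 in green. The mean was −0.20 ± 0.07 (SD, n = 4; 95% interval −0.31 to −0.10; limma adjusted p = 0.0315).

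RPIA encodes ribose 5-phosphate isomerase, which makes ribose 5-phosphate from ribulose 5-phosphate. Its brightest probe (chr15:13725786-13725845) gave log2 ratios of −0.27, −0.09, −0.16 and −0.03. The probe printed above, next to it in the genome, gave −0.26, −0.05, −0.30 and −0.04. Both were below 0 on every array, with replicates 2 and 4 close to 0. The means were −0.14 ± 0.10 and −0.16 ± 0.14 (SD, n = 4), and neither passed (limma adjusted p = 0.0989 for each). The 95% interval of the brightest probe ran from −0.26 to −0.018, so a change of the size seen for TKT lay inside it.

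**Figure D2:**
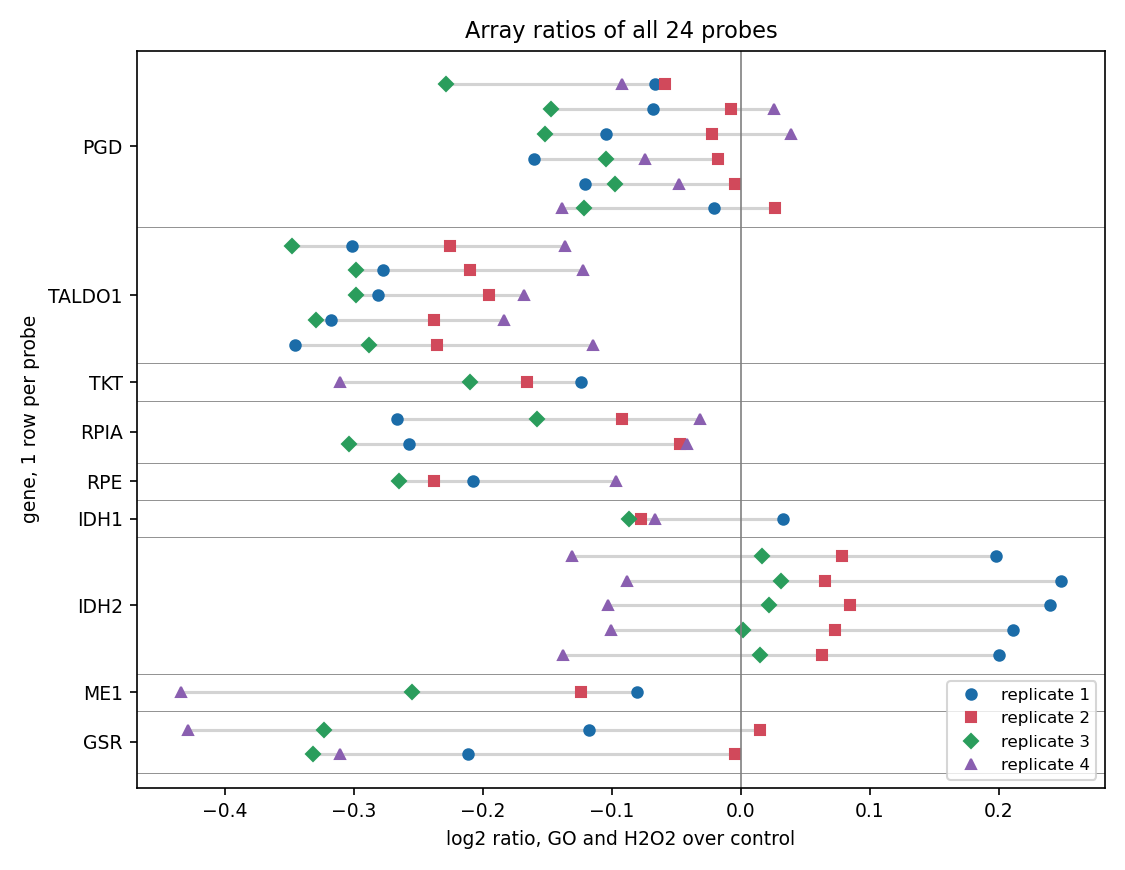
Log2 ratio of GO and H2O2 over control (x axis) of all 24 probes, 1 line of points per probe, grouped by gene (y axis), with 1 marker shape per array. The 5 TALDO1 probes lay between −0.35 and −0.11 on all arrays, and the 5 IDH2 probes all ran from replicate 1 at the right to replicate 4 at the left.

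The oxidative branch was measured at PGD, which encodes 6-phosphogluconate dehydrogenase, the enzyme of the second NADPH-yielding step. Its brightest probe had red intensities of 5396, 4935, 2956 and 3567 and green intensities of 4700, 3938, 2833 and 3331. The log2 ratios were −0.07, −0.06, −0.23 and −0.09, all below 0, with replicate 3 apart from the other arrays. The mean was −0.11 ± 0.08 (SD, n = 4; 95% interval −0.22 to −0.0038) and did not pass (limma adjusted p = 0.127).

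The 5 PGD probes of the second site gave means from −0.09 to −0.05, and their joint mean was −0.07. Here the probes spread within an array by an SD of 0.0425, averaged over the arrays, close to the SD of 0.0539 between the array means. Of these probes 3 had 1 array above 0. None of the 6 PGD probes passed (limma adjusted p from 0.127 to 0.455). Both sites were below 0 on average.

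None of the 3 NADP-linked dehydrogenases outside the pathway passed the threshold in limma, although ME1 had an unadjusted p under 0.05. ME1 encodes the cytosolic malic enzyme, which forms pyruvate and NADPH from malate. Its only probe (chr10:31735463-31735522) gave log2 ratios of −0.08, −0.12, −0.25 and −0.43, all below 0 and widest at replicate 4. The mean was −0.22 ± 0.16 (SD, n = 4; 95% interval −0.38 to −0.07), as large as that of TKT but with a wider spread, and it missed the threshold (limma adjusted p = 0.0577). With Agilent's own processed signals in place of normexp and loess it passed (limma adjusted p = 0.0460). It passed under 2 of 12 alternatives, these signals and the series matrix, which gave the same values. With any 1 array left out ME1 did not pass (limma adjusted p from 0.0555 to 0.159).

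IDH1 encodes the cytosolic and peroxisomal NADP-linked isocitrate dehydrogenase. Its log2 ratios were 0.03, −0.08, −0.09 and −0.07, so that replicate 1 stood on the other side of 0 from the remaining arrays. The mean was −0.05 ± 0.06 (SD, n = 4; 95% interval −0.15 to 0.05; limma adjusted p = 0.413). Its intensities were low, from 234 to 303 in red.

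IDH2 encodes the mitochondrial NADP-linked isocitrate dehydrogenase and was the only member with a mean above 0. Its brightest probe (chr1:90524938-90524997) gave log2 ratios of 0.20, 0.08, 0.02 and −0.13. The mean was 0.04 ± 0.14 (SD, n = 4; 95% interval −0.10 to 0.18; limma adjusted p = 0.646). The 5 IDH2 probes overlapped in 56 bases and put the arrays in the same order, with means from 0.04 to 0.06. Their spread was an SD of 0.0160 between probes of an array, averaged over the arrays, against 0.137 between the array means. The arrays thus differed more than the probes. Without replicate 1 the means of 3 of these probes turned below 0, to −0.012, −0.0084 and −0.020.

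GSR encodes glutathione reductase, which uses NADPH to return oxidised glutathione to its reduced form. The brightest probe (chr27:13152267-13152326) gave log2 ratios of −0.12, 0.02, −0.32 and −0.43, and its neighbour (chr27:13152189-13152248) gave −0.21, −0.0040, −0.33 and −0.31. Both probes were near 0 on replicate 2 and clearly lower on replicates 3 and 4. The mean of the brightest probe was −0.21 ± 0.20 (SD, n = 4), and neither probe passed (limma adjusted p = 0.0955 and 0.0578). Without replicate 2 both passed (limma adjusted p = 0.0375 and 0.0224), and with array weights over all 4 arrays the neighbour passed (limma adjusted p = 0.0366). The brightest probe passed under 0 of 12 alternatives that used all 4 arrays. Without replicate 1, 3 or 4 it did not pass either (limma adjusted p = 0.171, 0.238 and 0.280).

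The members did not vary together over the arrays. Replicate 4 was the lowest array for TKT, ME1, the brightest GSR probe and all 5 IDH2 probes. It was the array nearest to 0 for RPE, both RPIA probes and all 5 TALDO1 probes. The number of members below 0 was 7 on replicates 1 and 2, 8 on replicate 3 and 9 on replicate 4. The lowest member was TALDO1 on replicates 1 and 3, RPE on replicate 2 and ME1 on replicate 4.

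Levels in the separate channels were compared after the arrays were also brought to a common overall brightness (Aquantile). TALDO1 lay between 12.68 and 12.97 (log2 signal) with GO and H2O2 and between 13.01 and 13.11 in the control. TKT lay between 11.95 and 12.05 against 12.17 to 12.26, and ME1 between 10.95 and 11.23 against 11.30 to 11.39. For these 3 genes the groups did not overlap, and over all gene names the same held, in the lower direction, for 6.08% (7.26% in the higher). RPE, which passed the test of the ratio, overlapped in its levels (9.78 to 10.18 against 9.98 to 10.37), and arrays 3 and 4 were brighter in both channels. The remaining 5 genes overlapped as well.

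**Figure D3:**
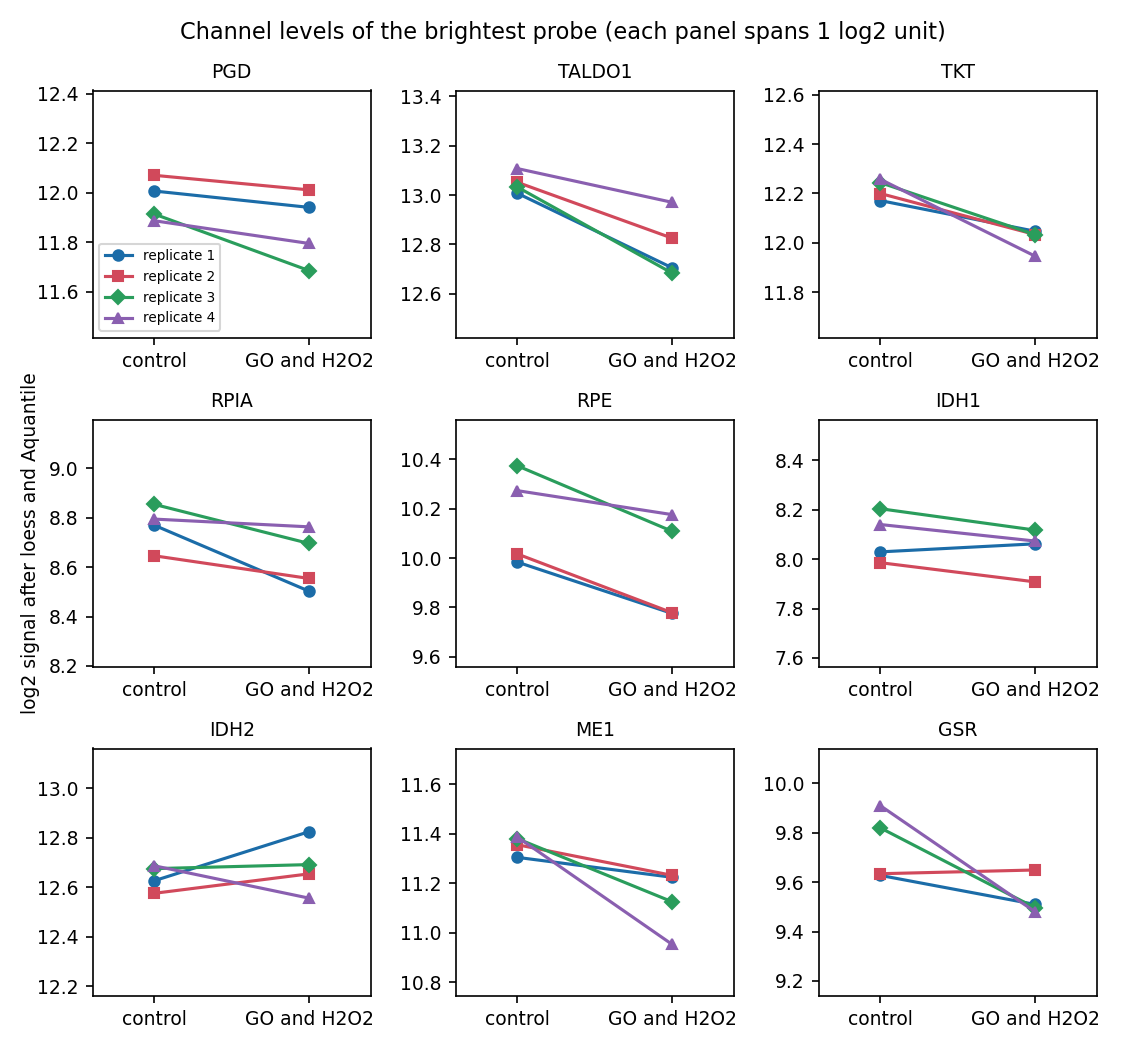
Log2 signal of the control and of the GO and H2O2 channel (y axis, 1 log2 unit in each panel) of the brightest probe of each enzyme, with a line joining the channels of 1 array. All lines fell in the TALDO1, TKT, RPE, RPIA, PGD and ME1 panels, and only TALDO1, TKT and ME1 had groups that did not overlap.

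The values of single arrays depended on the trend taken off each array. Before normalisation, TALDO1 had log2 ratios of scanned intensity of 0.01, 0.20, −0.04 and 0.10, so red was not below green on 3 of the 4 arrays. The 1000 tested probes nearest to it in brightness had median ratios of 0.29, 0.42, 0.30 and 0.21 on the same arrays. TALDO1 was below that median on all 4.

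The same was seen for TKT, with 0.15, 0.22, 0.08 and −0.11 against medians of 0.26, 0.39, 0.28 and 0.19. RPE had −0.03, 0.03, −0.00077 and 0.03 against 0.16, 0.28, 0.25 and 0.13. PGD, RPIA and ME1 were also below the median of like-bright probes on all 4 arrays, IDH1 and GSR on 3 and IDH2 on 1.

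In a further setting the background correction was kept and each array was centred on its median in place of loess. These values thus differ from the ratios of scanned intensity above by the background correction as well. TALDO1 was at −0.66, 0.09, −0.45 and 0.12. Replicates 1 and 3 were then below 0 and replicates 2 and 4 above it. The means stayed about as large, at −0.22 for TALDO1, −0.20 for TKT, −0.22 for RPE, −0.24 for ME1 and −0.23 for GSR, but none of the 9 genes passed the threshold (limma adjusted p = 0.801 for TALDO1).

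**Figure D4:**
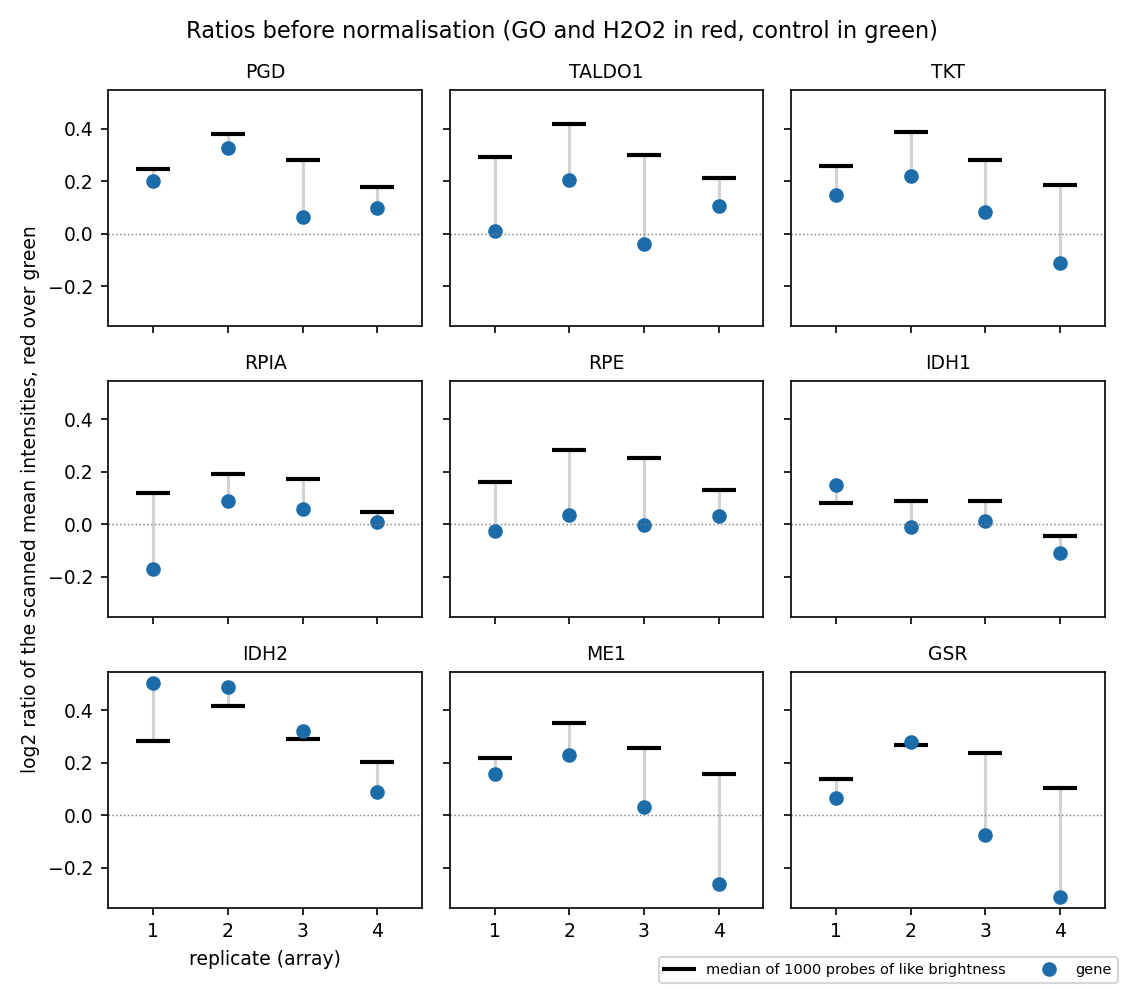
Log2 ratio of the scanned mean intensities, red over green and before any correction (y axis), on each array (x axis): points are the brightest probe of each enzyme and black bars the median of the 1000 tested probes nearest in brightness. Most points lay above 0, while TALDO1, TKT, RPE, PGD, RPIA and ME1 lay below the bar on all 4 arrays.

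The calls on TALDO1, TKT and RPE held under 9 of 12 other ways of processing or testing. Agilent's processed signals and the series matrix were counted separately among these and gave the same values. The calls were lost with median centring, with the channels treated as unpaired, and with the methods' t-test after Benjamini-Hochberg adjustment. The number of arrays limits what a test can show. An exact two-sided sign-flip test over 4 arrays cannot go below p = 0.125, the value reached by the 6 genes with all arrays below 0. Without replicate 1, 3 or 4 no member passed, and without replicate 2 the members past the threshold were TALDO1, TKT and GSR, with RPE at a limma adjusted p of 0.0563.

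Further genes of these pathways were taken from 5 lists. Of 44 genes listed, 37 had a probe by symbol and 34 were tested. The threshold was passed by 7 of the 34, of which 5 were lower and 2 higher, beside 17.1% of all gene names. The median log2 ratio of the 34 was −0.09, and 27 had a mean below 0.

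Of the other oxidative branch genes described here, PGLS was tested. It encodes the lactonase whose product PGD oxidises, and with a mean log2 ratio of −0.06 it did not pass.

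Among 5 other genes around ribose phosphate, DERA was lower, at −0.24 ± 0.06 (SD, n = 4; limma adjusted p = 0.0203). It encodes deoxyribose-phosphate aldolase, which feeds deoxyribose carbon into glycolysis. The means of the other 4 (SHPK, PGM2, PRPS1 and RBKS) were between −0.15 and −0.08 and did not pass. The 5 probes of SHPK disagreed, with means from −0.15 to 0.10 and only 2 of them below 0.

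Of 10 further genes listed under NADPH supply, 3 passed. MTHFD1, a folate enzyme with an NADP-linked dehydrogenase activity, was lower at −0.22 ± 0.08 (1 of its 2 probes passed), and ALDH4A1, a mitochondrial dehydrogenase of proline breakdown, was lower at −0.16 ± 0.04 (SD, n = 4; limma adjusted p = 0.0274 and 0.0388). The ALDH4A1 enzyme works mainly with NAD, so its call is not one of NADPH supply. The ALDH4A1 mean was −0.42 with Agilent's processed signals, and without background correction the gene did not pass (limma adjusted p = 0.0908). ALDH1L1, the cytosolic formyltetrahydrofolate dehydrogenase that produces NADPH, was higher at 0.29 ± 0.11 (SD, n = 4; limma adjusted p = 0.0218). The folate enzymes thus included changes in both directions.

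The NAD-linked relatives of the IDH and malate enzymes were set beside them. IDH3A, the catalytic subunit of the NAD-linked isocitrate dehydrogenase, was lower at −0.26 ± 0.07 with all 3 probes past the threshold, whereas IDH3B, another subunit, was higher at 0.23 ± 0.14 (SD, n = 4; limma adjusted p = 0.0195 and 0.0419). MDH2, the mitochondrial malate dehydrogenase, was lower at −0.25 ± 0.05 with all 5 probes past it (SD, n = 4; limma adjusted p = 0.0183). IDH3B passed under 6 of 12 alternatives, and not with Agilent's processed signals (limma adjusted p = 0.0745). IDH3G did not pass, with a mean of 0.09. MDH1, the cytosolic malate dehydrogenase, did not pass at its brightest probe (−0.15, limma adjusted p = 0.0590), whereas its other probe did (−0.22, limma adjusted p = 0.0352).

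As processed here, none of the 13 tested genes of the glutathione, glutaredoxin and thioredoxin systems passed in limma. Their means lay between −0.19 and 0.06, and 10 of them were below 0. GLRX was among these 10 by its brightest probe, although only 1 of its 4 probes was below 0. GCLM, the modifier subunit of the enzyme that starts glutathione synthesis, was the nearest to passing (−0.19, limma adjusted p = 0.0502). It passed under 4 of 12 alternatives, among them array weights (limma adjusted p = 0.0356).

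**Figure D5:**
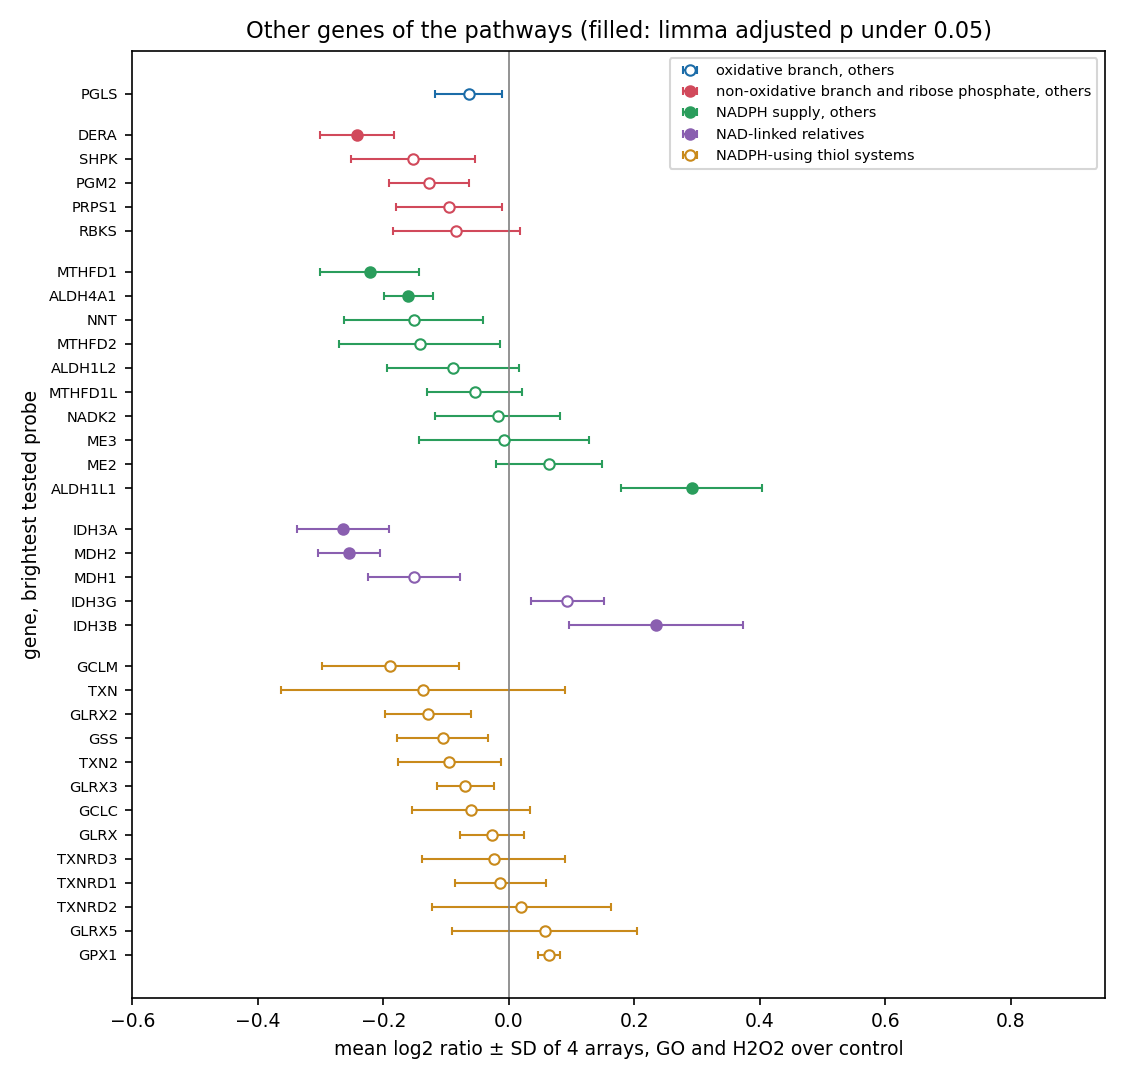
Mean log2 ratio of GO and H2O2 over control with its SD over 4 arrays (x axis) for the 34 tested genes of 5 lists (y axis, 1 colour per list, filled where the limma adjusted p was under 0.05). DERA, MTHFD1, ALDH4A1, IDH3A and MDH2 were filled below 0, ALDH1L1 and IDH3B above it, and none of the thiol genes was filled.

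The genes whose array values were most like those of TALDO1, the member with the smallest p, were sought among 8140 other genes with a symbol. By Euclidean distance over the log2 ratios of the 4 arrays they were FAM198B (0.0545), MRPL47 (0.0643), a protein of the mitochondrial ribosome, and SNRNP48 (0.0697), a protein of the minor spliceosome. Their means were −0.26, −0.27 and −0.28.

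The labelled cell type was checked by markers. Of 12 myogenic markers, 9 had a probe and all 9 were tested. The log2 ratio had a median of 0.23 over them, and 5 passed, all higher with GO and H2O2. Of all gene names 17.1% passed, 9.93% in the higher direction. The summed channel intensity of the 9 markers after Aquantile was 168222 to 198743 with GO and H2O2 and 143870 to 158771 in the control, without overlap. Taken singly, 7.26% of all gene names did not overlap in the higher direction. The myogenic sums rested largely on MYH3 and ACTA1, the brightest of the 9 markers. MYH3 passed (0.25), whereas ACTA1 did not (0.23, limma adjusted p = 0.0614). DES, MYF5 and MYOD1 did not pass either, with mean log2 ratios of 0.02, 0.09 and 0.15. Of the 2 MYOD1 probes, 1 had a mean below 0. Fibroblast markers had 2 of 5 tested genes past the threshold, 1 higher and 1 lower, with sums of 367249 to 431477 against 303175 to 376314. These sums rested largely on the brightest probes of COL1A2 and COL3A1 (mean log2 signal 17.56 and 16.93). Neither gene passed at any probe, and 5 of 9 COL1A2 probes and 3 of 7 COL3A1 probes had means below 0. The fibroblast marker that passed higher was THY1, with 1 probe (0.28, mean log2 signal 9.26). LUM passed lower (−0.43, mean log2 signal 13.20), with all 6 probes past the threshold. DCN (mean log2 signal 15.37) was below 0 on all 4 arrays and did not pass (−0.10, limma adjusted p = 0.127). Of the immune markers 2 of 3 passed, 1 in each direction, and of the pericyte and smooth muscle markers 0 of 2 (limma). No adipocyte or endothelial marker with a probe was well above background on all arrays of a channel. The part of these shifts in the enzyme values was not tested.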

How the data were processed

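The members and the gene lists were chosen with earlier results of these data known. The deposited scanner files hold mean and background intensity of both channels for each spot, extracted by the authors with Agilent Feature Extraction 10.10.1.1 per the file headers. The deposited log10 ratios are of red over green after the authors' background subtraction and dye normalisation, and the authors' series matrix equals them (largest difference 0). From the intensities, normexp (offset 50) and loess within arrays were applied with limma 3.58.1 in R 4.3.3. Control spots had weight 0, outlier spots were left out, and spots of a probe were averaged. Tested were the 24229 of 43603 probes that cleared the scanner's background mark on every array in at least one channel. The mean log2 ratio was tested against 0 with lmFit and eBayes, two-sided, Benjamini-Hochberg adjusted over all tested probes at 0.05. Arrays paired treated and control RNA. With 1 slide, no slide block could be fitted. Positions are those in the files, and exons and UTRs were not assigned. A further gene of the lists is not reported here. Named were all members, up to 3 passing genes per list and the 3 genes most like TALDO1; other genes named for having missed the threshold, and each list's further members, were named after their values were seen. Alternatives were other background corrections, scalings, filters, variance models, array weights, unpaired channels, the mean over probes of a gene, the methods' t-test and leaving out each array. Having 4 arrays limits the precision.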

Additional observations from a re-analysis of the deposited data

Results flagged for a closer look

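Array values were compared within each of 58 sets of 4 (member probes and pathway genes), and in 4 sets 1 array stood apart by more than Dixon's limit for the gap over the range. Chance sets apart about 1 set in 20. IDH1 was at 0.033 on replicate 1 and between −0.09 and −0.07 on the others. PGM2 was at −0.22 on replicate 1 and between −0.10 and −0.08 on the others. NADK2 was at 0.13 on replicate 2 and between −0.08 and −0.05 on the others. TXNRD1 was at −0.12 on replicate 4 and between 0.02 and 0.03 on the others.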

How the results depend on the processing

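Past the threshold were 3 member genes, 7 member probes, 7 pathway genes and 4137 of all probes. With median centring in place of loess these counts were 0, 0, 0 and 12, all 12 of them higher. With no replicate block, the channels being unpaired, they were 0, 0, 1 and 594. The methods' t-test gave 0, 0, 0 and 5 after Benjamini-Hochberg adjustment, and 3, 7, 13 and 6930 unadjusted. Leaving out 1 array at a time gave 0 to 3 member genes, 0 to 8 member probes, 0 to 7 pathway genes and 0 to 3898 of all probes. The highest counts were those without replicate 2. Without replicates 1, 3 and 4 no member passed in limma, although 5, 4 and 5 member genes had an unadjusted p under 0.05, and 2, 38 and 0 of all probes passed (6694 at an unadjusted p under 0.05 without replicate 4). Of the calls over all probes 55.6% were higher, and 62% without background correction. The sign of every member mean was kept under the alternatives that used all 4 arrays. Without replicate 1, 3 IDH2 probes reversed to −0.012, −0.0084 and −0.020, against 0.098, 0.095 and 0.093 without replicate 4. The cause of these losses was not tested. Each of these fits had 1 array fewer, as had the fit without replicate 2, in which 3898 of all probes passed. Unswapped dyes, 1 slide and 1 cell line limit all values.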
